A study of Mus musculus with 12 samples.

Results

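A set of 10 genes of neutrophil granules and receptors was followed through 4 single-cell RNA libraries of mouse aorta, 10 of the 32285 genes counted. They were chosen by their measured levels in these libraries, being high in 1 of them, so that their differences between libraries are a description and no test of that choice. S100a8, S100a9 and Retnlg also served to divide the barcodes (the tags that mark droplets called as cells): a barcode with at least 20 summed unique molecular identifiers (UMIs, counted RNA molecules) of the 3 genes was placed at or over the threshold. By this rule 514 of 73666 barcodes were taken, and the other 7 genes (Ngp, Camp, Ltf, Mmp8, Mmp9, Csf3r and Cxcr2) played no part in it.

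All 4 groups were male C57BL/6J mice given as ApoE−/−, 18 per group, 8 weeks of age when the diets began and followed for 24 weeks, with saline or drug by stomach tube every other day. The group labelled Healthy had a normal diet and saline, and AS had a diet of 1% cholesterol and 10% fat with saline. MTZ-treated had that diet with 25 mg/kg of methazolamide (MTZ, an inhibitor of carbonic anhydrases) over the last 12 weeks, and MTZ-preventive had it with the same dose over all 24 weeks. Aortas of 6 mice were pooled into 1 library per group, so the values compare libraries and not conditions, no p-value is given, and the 95% intervals cover counting error only. Apoe stood at 696 UMIs per 1000000 UMIs of the library (CPM) in the library labelled Healthy against 8.98 to 11.8 CPM in the other libraries, which goes against the label of an ApoE−/− group. The libraries held 6908 (AS) to 23963 (MTZ-preventive) barcodes and 7617682 (AS) to 50769911 (MTZ-preventive) UMIs, and the median barcode 795 to 1366 UMIs. A total level from pooled tissue cannot tell fewer neutrophils from less RNA per neutrophil.

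Neutrophils are short-lived white blood cells that mature in the bone marrow, fill their granules in a fixed order and are then released into the blood. Proteins of secondary granules (Ngp, Camp, Ltf) are made at the precursor stage, metalloproteinases (Mmp8, Mmp9) somewhat later, and the receptors for G-CSF (Csf3r) and for CXC chemokines (Cxcr2) are carried by the mature cell. S100a8 and S100a9 form calprotectin, the most abundant protein pair of the neutrophil cytosol, and Retnlg is a resistin-like secreted protein of mouse neutrophils.

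The windows before the starts of Ngp, Camp and Ltf are shown because these secondary granule genes lie on the same chromosome. Over all barcodes they also shared an order among the 3 lower libraries. In the RefSeq annotation of build GRCm38.p6 the genes are at chr9:110419808-110423012 (Ngp), chr9:109847377-109849456 (Camp) and chr9:111019292-111042766 (Ltf). The 250 bases before each start are chr9:110419558-110419807 (plus strand), chr9:109849457-109849706 (minus strand) and chr9:111019042-111019291 (plus strand). Capitals mark letters that match the C/EBP motif TTGCNNAA or the PU.1 core GAGGAA on either strand, motifs of factors known for myeloid genes.
Ngp: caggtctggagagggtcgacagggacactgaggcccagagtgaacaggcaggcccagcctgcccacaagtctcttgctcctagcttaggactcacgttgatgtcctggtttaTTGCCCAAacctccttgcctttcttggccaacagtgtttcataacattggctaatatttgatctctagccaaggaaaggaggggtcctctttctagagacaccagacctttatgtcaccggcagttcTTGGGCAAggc
Camp: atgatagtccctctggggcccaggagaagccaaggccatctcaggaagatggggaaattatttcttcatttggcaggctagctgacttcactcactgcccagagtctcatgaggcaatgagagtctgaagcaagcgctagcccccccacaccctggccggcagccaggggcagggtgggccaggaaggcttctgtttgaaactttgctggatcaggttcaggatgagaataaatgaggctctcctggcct
Ltf: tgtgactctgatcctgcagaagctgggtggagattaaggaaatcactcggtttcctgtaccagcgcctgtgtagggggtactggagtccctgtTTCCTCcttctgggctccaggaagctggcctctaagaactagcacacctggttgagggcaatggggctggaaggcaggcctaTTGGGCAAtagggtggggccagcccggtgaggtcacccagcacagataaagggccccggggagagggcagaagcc
Ngp held C/EBP matches that begin 138 and 11 bases before the start, and Ltf held a C/EBP match at 75 and a PU.1 match at 157 bases. Camp held no match of either motif in this window. Of the 9 genes with a window in the table, 5 held the C/EBP motif and 5 the PU.1 core, against 9.56% and 23.25% of all 32851 windows of the same length. A match is a run of letters and was not tested as a binding site.

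All 10 genes stood highest in AS, as the choice of genes fixes. Calprotectin transcripts led, S100a9 at 86.4 CPM in the library labelled Healthy, 3132 for AS, 92.2 for MTZ-treated and 128 for MTZ-preventive, and S100a8 at 57.4, 2236, 56.8 and 69.4 CPM in the same order. Retnlg stood at 15.1, 1013, 29.2 and 40.8 CPM. Over the 3 genes the AS level was 40.1-fold that of the library labelled Healthy (39.1 to 41.2), 35.8-fold that of MTZ-treated (34.7 to 36.9) and 26.8-fold that of MTZ-preventive (26.3 to 27.4).

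The secondary granule genes stood in a different order from the receptors among the 3 lower libraries. Ngp, a neutrophil granule protein of the cystatin fold, stood at 12.03 CPM (11.004 to 13.1) in the library labelled Healthy, 206 (196 to 217) for AS, 5.38 (4.53 to 6.35) for MTZ-treated and 1.60 (1.27 to 1.98) for MTZ-preventive. Camp, the precursor of the antimicrobial peptide cathelicidin, stood at 10.6 CPM (9.67 to 11.7), 21.7 (18.5 to 25.2), 6.26 (5.34 to 7.30) and 0.512 (0.335 to 0.750). For both genes no interval overlapped another over all barcodes, and MTZ-preventive was lowest. The order of the library labelled Healthy and MTZ-treated depended on the barcodes used. Under the threshold, Camp stood at 0.948 CPM (0.678 to 1.29) and 2.22 CPM (1.68 to 2.87). Ngp stood there at 2.37 CPM (1.93 to 2.88) and 3.48 CPM (2.80 to 4.27), with overlapping intervals. Within the study's limits on cells and without doublets, Camp stood at 4.84 CPM (4.06 to 5.72) and 6.72 CPM (5.48 to 8.16). These Camp intervals overlapped too. In that setting 1 barcode held 109 Camp UMIs in the library labelled Healthy, and 1 held 93 in MTZ-treated, most of the Camp UMIs of each. Ngp stood at 7.12 and 2.70 CPM in the same setting. Ltf, the iron-binding lactoferrin, stood at 2.37 CPM (1.93 to 2.88), 16.5 (13.8 to 19.7), 0.420 (0.210 to 0.751) and 0.118 (0.0434 to 0.257), with the intervals of the last pair overlapping.

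Over all barcodes, the metalloproteinases Mmp8 and Mmp9 and the receptors were instead highest in MTZ-preventive among the 3 lower libraries. Csf3r stood at 0.497 CPM (0.308 to 0.760) in the library labelled Healthy, 17.6 (14.7 to 20.8) for AS, 0.992 (0.648 to 1.45) for MTZ-treated and 2.66 (2.23 to 3.15) for MTZ-preventive. Cxcr2 stood at 0.237 CPM (0.114 to 0.435), 15.6 (12.9 to 18.7), 0.420 (0.210 to 0.751) and 1.36 (1.06 to 1.72). For both receptors the intervals of the library labelled Healthy and MTZ-treated overlapped, and that of MTZ-preventive lay above them. Mmp8, the neutrophil collagenase, stood at 0.687 CPM (0.460 to 0.986), 49.9 (45.0 to 55.2), 0.496 (0.264 to 0.849) and 1.95 (1.58 to 2.37). Mmp9, gelatinase B, stood at 1.30 CPM (0.981 to 1.70), 22.3 (19.1 to 25.9), 0.916 (0.587 to 1.36) and 1.71 (1.37 to 2.11), where the intervals of MTZ-preventive and the library labelled Healthy overlapped. The order of this pair depended on the barcodes used. Within the study's limits Mmp9 stood at 1.31 CPM in the library labelled Healthy and 1.24 CPM in MTZ-preventive, and also without doublets at 0.982 and 1.26 CPM.

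**Figure D1:**
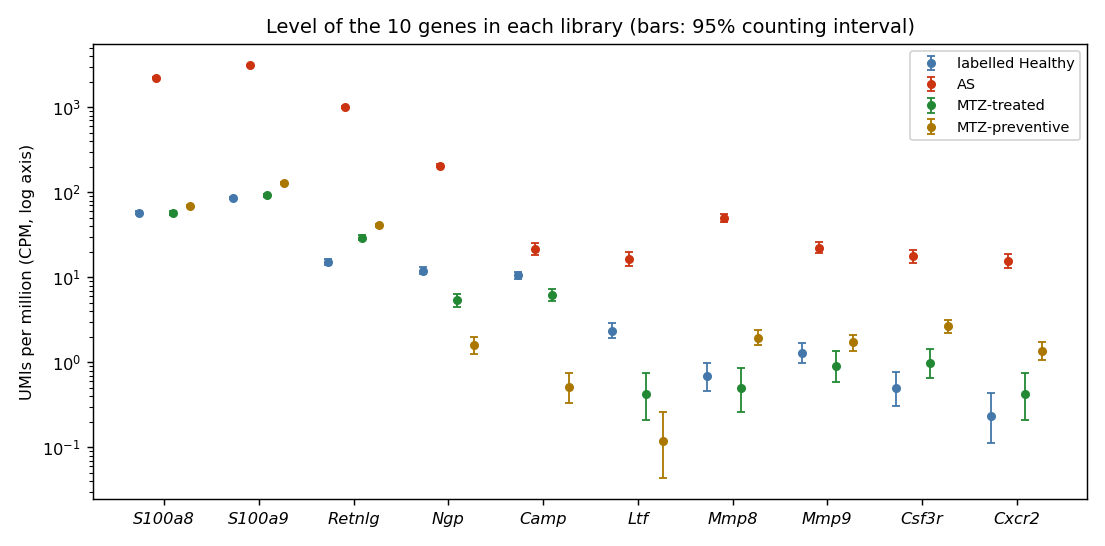
Level of each of the 10 genes in each library, in CPM on a log axis, with points for the libraries and bars for 95% counting intervals. Over all barcodes AS lies highest for every gene, and among the other libraries MTZ-preventive is lowest for Ngp, Camp and Ltf and highest for Mmp8, Mmp9, Csf3r and Cxcr2.

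The excess of AS over the library labelled Healthy was thus unequal among the members. It was 72.7-fold (49.8 to 110) for Mmp8, 66.0-fold (34.6 to 141) for Cxcr2 and 35.4-fold (22.2 to 59.0) for Csf3r, but 2.04-fold (1.69 to 2.44) for Camp. Against a rule of at least 4-fold in CPM + 1 among genes that reached 10 CPM in 1 or both libraries, 9 of the 10 members were past it in AS over the library labelled Healthy, all but Camp, where 2.79% of all genes were. Members below the fold from AS to MTZ-treated numbered 9, again without Camp, with 1.96% of all genes, and 10 from AS to MTZ-preventive, with 1.05% of all genes. Since the genes were chosen for this contrast and 5 to 7 of them reached 10 CPM through AS alone, nothing is read from these counts. The median log2 ratio of the members was 3.87, -4.32 and -4.04 in the 3 comparisons, beside -0.09, 0.04 and 0.08 over all genes tested, and the 3 comparisons share the AS library.

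Few barcodes were at or over the threshold: 41 of 21857 in the library labelled Healthy (0.188%, 0.135 to 0.254), 345 of 6908 for AS (4.99%, 4.49 to 5.53), 42 of 20938 for MTZ-treated (0.201%, 0.145 to 0.271) and 86 of 23963 for MTZ-preventive (0.359%, 0.287 to 0.443). The share in AS was 26.6-fold that of the library labelled Healthy (19.2 to 37.8), 24.9-fold that of MTZ-treated (18.04 to 35.2) and 13.9-fold that of MTZ-preventive (10.96 to 17.8). The median of these barcodes was 738 to 1109 UMIs, against 795 to 1366 over all barcodes. Some barcode sequences occur in several libraries, among them 31 of the 345 in AS (8.99%, beside 9.32% of all AS barcodes), and none was at the threshold in more than 1 library.

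The 7 genes outside the rule were divided unequally between these barcodes and all others. Threshold barcodes held 83.9% of the UMIs of the 7 genes in the library labelled Healthy (81.6 to 85.9), 62.9% for AS (61.0 to 64.7), 46.2% for MTZ-treated (41.1 to 51.2) and 53.3% for MTZ-preventive (48.8 to 57.7). In the library labelled Healthy, the 3 barcodes with most summed UMIs of S100a8, S100a9 and Retnlg held 71.3% of them. For AS, MTZ-treated and MTZ-preventive the corresponding values were 26.2%, 31.8% and 8.15%. The intervals do not cover this dependence on single barcodes. Ngp had 80.3% of its UMIs there in the library labelled Healthy, 70.0% for AS, 35.5% for MTZ-treated and 64.2% for MTZ-preventive. Ltf had 89.0% and 46.8% in the first pair, but 0 of 11 UMIs in MTZ-treated and 0 of 6 in MTZ-preventive. Camp had 91.1%, 63.0%, 64.6% and 3.85%, the last being 1 of 26 UMIs. Csf3r had 66.7%, 44.0%, 34.6% and 50.4%.

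**Figure D2:**
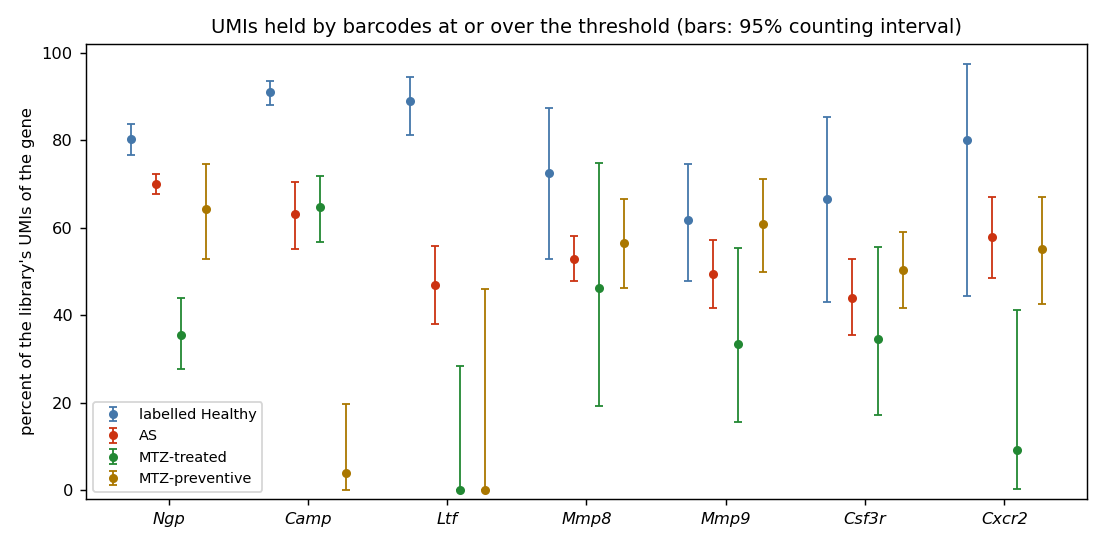
Percent of each gene's UMIs held by barcodes at or over the threshold, for the 7 genes that the threshold did not use, with points for the libraries and bars for 95% counting intervals. The library labelled Healthy lies at 61.8% or more for every gene, while Ltf lies at 0 in MTZ-treated and MTZ-preventive. In the library labelled Healthy, 3 barcodes held 71.3% of the UMIs of the 7 genes.

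In AS, all 7 genes stood higher in threshold barcodes than in the others. Ngp stood at 2654 CPM against 65.5 CPM (40.5-fold), Mmp8 at 485 against 24.8 CPM (19.5-fold), Cxcr2 at 167 against 6.94 CPM (23.99-fold) and Csf3r at 142 against 10.4 CPM (13.7-fold). In MTZ-preventive, Csf3r stood at 496 against 1.32 CPM, Mmp9 at 386 against 0.672 CPM and Cxcr2 at 277 against 0.612 CPM. By the 4-fold rule, 7 of the 7 genes were past it in the library labelled Healthy (7.84% of all genes), 7 for AS (3.69%), 6 for MTZ-treated (9.79%) and 5 for MTZ-preventive (6.13%). All 7 genes in the library labelled Healthy, 3 in AS and every gene past the fold in MTZ-treated and MTZ-preventive reached 10 CPM through the threshold barcodes alone, so nothing is read from these counts. The genes not past it were Ltf in MTZ-treated and Ltf and Camp in MTZ-preventive. No Ltf UMI was found in the 42 and 86 threshold barcodes of these libraries, which allows up to 85.5 and 21.9 CPM, where AS had 142 CPM and the library labelled Healthy 1552 CPM.

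Other genes of neutrophils, from lists that were not part of the rule, were counted in the same barcodes by the same 4-fold rule. Of all genes, 7.84% were past it in the library labelled Healthy, 3.69% for AS, 9.79% for MTZ-treated and 6.13% for MTZ-preventive. The same limit holds: 1 UMI in these barcodes made 17.4 CPM in the library labelled Healthy and 28.5 CPM in MTZ-treated. Some calls rested on 2 UMIs, such as Ptafr in the former and Itgam in the latter. Nothing is read from the counts of this or the following lists. Of 17 genes of mature neutrophils, 15 were past the fold in the library labelled Healthy, 14 for AS, 15 for MTZ-treated and 16 for MTZ-preventive. Among them Cxcl2, a chemokine that Cxcr2 binds, stood at 3628, 11636, 8352 and 22531 CPM in threshold barcodes. Of 15 further receptors counted, 13, 14, 10 and 13 were past it, led in AS by the decoy receptor Il1r2 (845 against 42.5 CPM) and in MTZ-preventive by Il1r2 (2040 against 10.8 CPM) and the lectin Clec4e (984 against 3.59 CPM). Of 7 genes of gelatinase granules and adhesion, 5, 5, 6 and 7 were past it, and of 6 further secondary granule genes 4, 3, 4 and 3. Lcn2, an iron-chelator binding protein of those granules, stood at 4452 against 724 CPM in AS.

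Genes of primary granules were scarce. Of 5 such genes, which are made earliest, 2, 3, 1 and 0 were past the fold, and the highest, the protease Prtn3, reached 145 CPM in threshold barcodes of AS. Those in the library labelled Healthy (Elane and Prtn3) and in MTZ-treated (Prtn3) had 1 UMI each in the threshold barcodes, so nothing is read from them. Of 7 regulators, 2, 1, 1 and 2 were higher past it, with Spi1, which encodes PU.1, among them in every library (262, 369, 114 and 517 CPM). Of 5 ligands, 1, 1, 1 and 2 were higher past it, Csf3 in the library labelled Healthy and Cxcl3 in the other 3, with Csf3 also in MTZ-preventive. In the other direction, Irf8 was lower past the fold in MTZ-treated and MTZ-preventive, Cebpa and Csf3 in MTZ-treated, and Cxcl1 in the library labelled Healthy and MTZ-treated. Each of these rested on 0 or 1 UMI in the threshold barcodes.

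The threshold barcodes were not of 1 kind. After the values were seen they were divided at 30 and 100 summed UMIs, and each was asked for a UMI of at least 3 of 10 neutrophil markers (4 of which are members) and of at least 3 markers of fibroblasts or of smooth muscle. With 100 or more summed UMIs, neutrophil markers were met by 7 of 8 barcodes in the library labelled Healthy, 35 of 47 for AS, 3 of 9 for MTZ-treated and 28 of 30 for MTZ-preventive. The markers leave out Ngp, Camp and Ltf, and those MTZ-treated barcodes held only 577 to 1389 UMIs. Of these, 1 with 93 Camp and 20 Ngp UMIs had 0 of the markers. A barcode that misses the markers is thus not shown to be another cell, and the part of depth was not tested. With 20 to 29 summed UMIs, neutrophil markers were met by 0 of 26, 7 of 109, 0 of 24 and 7 of 14. Fibroblast or smooth muscle markers were met by all 26 barcodes of that lowest class in the library labelled Healthy, 46 of 109 for AS, 17 of 24 for MTZ-treated and 2 of 14 for MTZ-preventive. Just under the threshold, at 15 to 19 summed UMIs, these stromal markers were met by 22 of 22, 48 of 117, 20 of 23 and 5 of 16.

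**Figure D3:**
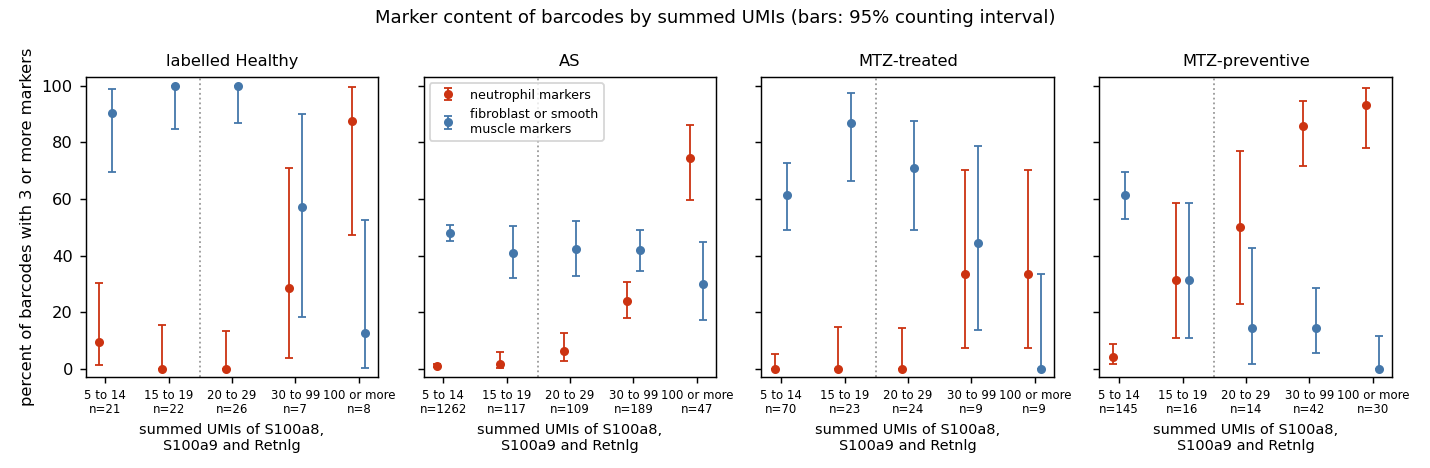
Percent of barcodes with at least 3 neutrophil markers (red) or at least 3 fibroblast or smooth muscle markers (blue), by summed UMIs of S100a8, S100a9 and Retnlg, in each library, with bars for 95% counting intervals and a dotted line at the threshold of 20. In MTZ-preventive 7 of 14 barcodes with 20 to 29 summed UMIs met the neutrophil markers, while in the library labelled Healthy 0 of 26 did.

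Genes that overlap ribosomal RNA repeats (Gm42418 and AY036118) differed among these classes. They took 16.1% of UMIs at 20 to 29 summed UMIs in the library labelled Healthy, 6.76% in its barcodes without a UMI of the 3 genes and 3.48% at 100 or more. The same values were 12.8%, 10.3% and 5.56% in AS, 14.01%, 7.76% and 3.99% in MTZ-treated and 5.04%, 5.45% and 3.02% in MTZ-preventive. In MTZ-preventive alone the class of 20 to 29 was not the highest of these. Their part in the result was not tested.

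Levels of granule and receptor genes were set side by side in barcodes with 100 or more summed UMIs, which held 828 of the 1057 UMIs of Ngp, Camp and Ltf in the library labelled Healthy, 869 of 1863 for AS, 127 of 316 for MTZ-treated and 34 of 113 for MTZ-preventive. In the library labelled Healthy, Ngp, Camp and Ltf together stood at 38670 CPM in these 8 barcodes, in AS at 7173 CPM, in MTZ-treated at 15465 CPM and in MTZ-preventive at 760 CPM (526 to 1062). Csf3r and Cxcr2 together stood at 747 CPM (427 to 1213), 512 (392 to 656), 609 (198 to 1421) and 1252 (946 to 1626). There were 51.8 UMIs of the secondary granule genes for each receptor UMI in the library labelled Healthy (31.7 to 91.0), 14.02 for AS (10.8 to 18.4), 25.4 for MTZ-treated (10.6 to 79.6) and 0.607 for MTZ-preventive (0.384 to 0.946). Single barcodes set much of these ratios: without the barcode richest in the 3 granule genes, which held 371 of the 828 UMIs in the library labelled Healthy, 356 of 869 for AS, 113 of 127 for MTZ-treated and 24 of 34 for MTZ-preventive, they were 28.6 (17.4 to 50.4), 8.27 (6.35 to 10.95), 2.80 (0.953 to 9.93) and 0.189 (0.0856 to 0.375). The level of the granule genes in MTZ-treated was then 2052 CPM (1122 to 3443). The interval of MTZ-preventive overlapped none of the others, with or without these barcodes. Barcodes under the threshold had ratios of 16.8 (8.61 to 37.4) for the library labelled Healthy, 4.80 (3.95 to 5.87) for AS, 5.93 (3.92 to 9.27) for MTZ-treated and 0.612 (0.436 to 0.853) for MTZ-preventive.

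**Figure D4:**
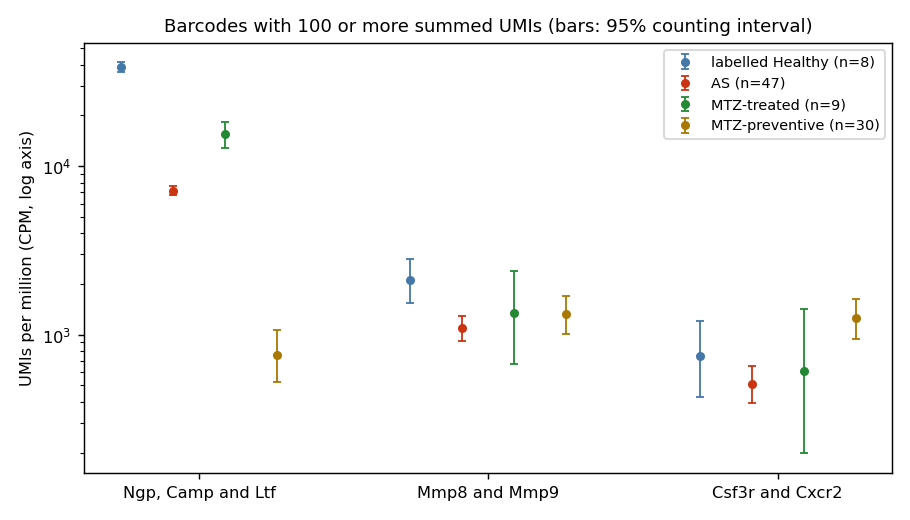
Summed level of the secondary granule genes Ngp, Camp and Ltf, of the metalloproteinases and of the receptors in barcodes with 100 or more summed UMIs of S100a8, S100a9 and Retnlg, in CPM on a log axis, with bars for 95% counting intervals. Secondary granule genes span 760 to 38670 CPM among the libraries, against 512 to 1252 CPM for the receptors.

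A few barcodes held much of the granule gene UMIs. In the library labelled Healthy, 3 of the 8 barcodes held 57, 149 and 140 UMIs of Ngp, 81, 174 and 109 of Camp and 14, 48 and 23 of Ltf. Another held 24 of Ngp and 9 of Camp, and the remaining 4 held none of the 3 genes and 1, 2, 3 and 4 UMIs of Csf3r. In MTZ-treated, 1 barcode held 93 of the 164 Camp UMIs of the whole library, and without it Camp fell from 6.26 to 2.71 CPM. In AS, 1 barcode held 80 of 165 Camp UMIs, and without it Camp fell from 21.7 to 11.2 CPM. In the library labelled Healthy, 1 barcode held 174 of 449, and without it Camp fell from 10.6 to 6.51 CPM. The Camp level of AS over that library was 2.04-fold with all barcodes, 1.05-fold (0.823 to 1.33) without the AS barcode alone and 1.72-fold (1.33 to 2.20) without both. At least 10 UMIs of the 3 genes were held by 4 of 8 barcodes in the library labelled Healthy (15.7% to 84.3%) and 10 of 47 in AS (10.7% to 35.7%). In MTZ-treated it was 1 of 9 (0.281% to 48.2%) and in MTZ-preventive 1 of 30 (0.0844% to 17.2%), and these intervals overlapped.

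Outside the threshold barcodes the genes of the threshold were spread widely in AS and thinly elsewhere. At least 1 UMI of S100a8, S100a9 or Retnlg was found in 60.6% of the other barcodes of AS, 1.04% of those of the library labelled Healthy, 2.52% in MTZ-treated and 6.54% in MTZ-preventive. For the 7 genes outside the rule the shares were 11.8%, 0.573%, 0.751% and 0.829% in the same order. Singly, these genes were in 0.731% (Cxcr2) to 5.97% (Ngp) of the other barcodes of AS. To set depth aside, each barcode was thinned to 500 UMIs, which left none out. S100a9 was then found in 43.1% of AS barcodes with adipocyte markers (40.5 to 45.8), 38.6% with smooth muscle markers (35.8 to 41.5), 33.0% with fibroblast markers (29.99 to 36.1), 28.9% with endothelial markers (25.2 to 32.9), 17.7% with macrophage markers (12.1 to 24.6) and in 3 of 25 with B cell markers (2.55% to 31.2%). Before thinning these shares were 54.9%, 46.7%, 42.0%, 42.8%, 25.3% and 16.0%, at medians of 951, 807, 869, 1054, 855 and 1058 UMIs. By S100a9, B cells and macrophages, the lowest in AS, differed from adipocytes and smooth muscle by more than the intervals. S100a9 is a gene of the threshold, which capped it in these barcodes. Summed without thinning, the 7 genes outside the rule stood at 125 CPM (109 to 142) with adipocyte markers. With smooth muscle markers they stood at 139 CPM (119 to 163), and with macrophage markers at 22.1 CPM (7.17 to 51.5, 5 UMIs). The B cell barcodes held 1 UMI of the 7 genes (24.7 CPM, 0.624 to 137), an interval that overlapped all of these.

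In the other libraries the thinned share reached at most 3.37% in any marker group. In the library labelled Healthy it was 0.79% with fibroblast markers (0.57 to 1.08) and 0.13% with B cell markers (0.05 to 0.29). In MTZ-preventive it was 2.85% with smooth muscle markers (2.43 to 3.33) and 0.54% with B cell markers (0.25 to 1.02). The share of B cell barcodes, cells that should lack the gene, was set beside these values. Those barcodes were deeper, at a median of 1806 UMIs against 906 for fibroblast markers in the library labelled Healthy. In MTZ-preventive the medians were 1560 UMIs for B cell and 1197 for smooth muscle markers. An equal amount of free RNA per droplet would make a smaller part of a deeper barcode after thinning. The B cell share is thus no fixed background, and the part of depth was not tested. Fibroblast barcodes of the library labelled Healthy and smooth muscle barcodes of MTZ-preventive lay above the B cell share. The interval of smooth muscle barcodes of the library labelled Healthy (0.36%, 0.19 to 0.61) overlapped that of its B cell barcodes.

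**Figure D5:**
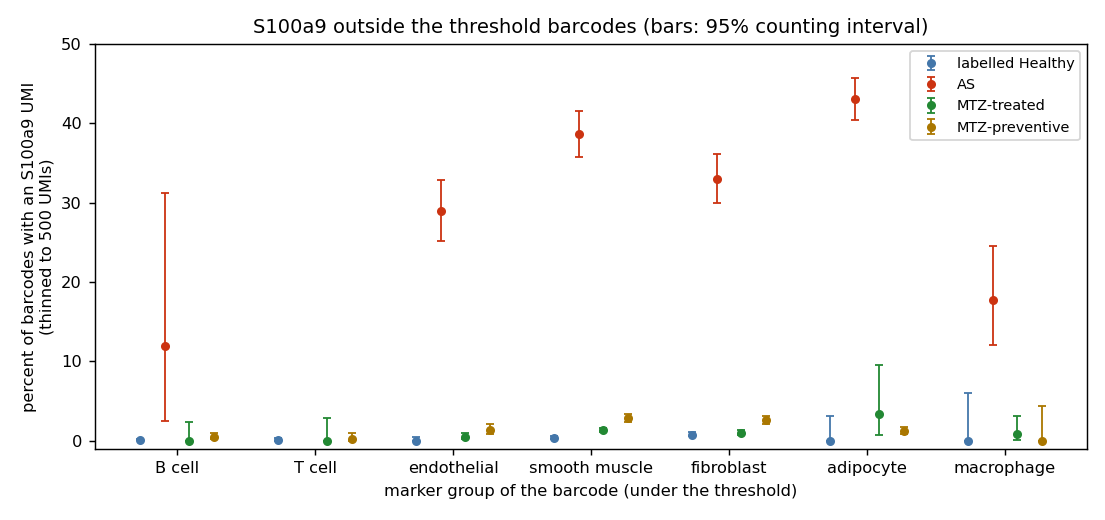
Percent of barcodes under the threshold with an S100a9 UMI after thinning to 500 UMIs, by marker group and library, with bars for 95% counting intervals. AS lies highest in each group it has, up to 43.1%, and the other libraries lie at 3.37% or less. S100a9 is a gene of the threshold, which capped it in these barcodes.

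The 4 most abundant members, which include the genes of the threshold, had the same order in and outside the threshold barcodes of AS, but not the same shares. The shares here are of the UMIs of all 10 members. S100a9 made up 46.5% in threshold barcodes and 46.7% in the others, S100a8 34.6% and 30.7%, Retnlg 13.9% and 17.2%, and Ngp 3.32% and 2.61%. Among AS barcodes with smooth muscle markers, S100a9 made up 47.8%, S100a8 29.96%, Retnlg 17.2% and Ngp 2.35%, and with adipocyte markers 46.1%, 30.4%, 18.4% and 2.27%. In MTZ-preventive S100a9 made up 52.4% and 49.5%, and Retnlg 17.1% and 14.96%. The less abundant members differed too. In AS there were 9.87 UMIs of Ngp, Camp and Ltf for each receptor UMI in threshold barcodes (8.22 to 11.9), against 4.80 in the others (3.95 to 5.87).

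The genes most like the 7 were sought over 8 values, the threshold and other barcodes of the 4 libraries, which share the same division and the same libraries. Genes that were not members and reached 100 CPM in at least 1 of the 8 values were ranked. By Pearson correlation on log2(CPM + 1) among 2445 genes, the first were Cd177 (0.994), Ifitm6 (0.987), Mcemp1 (0.977), Sirpa (0.973), Ly6g (0.973), Chil1 (0.969), Slfn4 (0.969), Wfdc21 (0.969), Il1f9 (0.968) and Rin3 (0.965). All 10 reached 100 CPM through threshold barcodes alone, and Il1f9 in those of MTZ-treated rested on 1 UMI (28.5 CPM). There Chil1 and Slfn4 rested on 2 UMIs each (57.0 CPM), and Cd177, Sirpa and Rin3 on 3 each (85.5 CPM). The size of the difference in AS varied, as Cd177 stood at 193 against 7.08 CPM. Rin3 in AS stood at 74.8 against 63.2 CPM, and Sirpa at 86.9 against 35.0 CPM. The list thus describes the division and is no test of it. Cd177 and Ly6g are surface proteins used to mark mouse neutrophils. A list by share of UMIs in threshold barcodes of AS left out the members, of which Ngp had 70.0%, and all genes under 200 UMIs. The highest in this list, among 4686 genes, were Ifitm6 (64.2%), Chil3 (61.1%), Pglyrp1 (58.1%), Ly6c2 (53.8%), Ifitm1 (53.4%), Il1r2 (53.4%), Wfdc17 (48.8%), Slfn4 (47.2%), Alox5ap (46.2%) and Chil1 (46.1%). Ly6c2 is also a marker of monocytes, and 12 of the 345 threshold barcodes of AS had at least 3 of 5 monocyte markers.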

How the data were processed

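The 4 libraries were made with the 10x Genomics 5′ kit. The authors counted them with Cell Ranger, version 5.0.0 per the file headers, and deposited raw UMI counts per gene and barcode. The submitters' processing notes name STAR and mm10. Receptor libraries were not used here.

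Counts were summed over barcodes and scaled to CPM. Intervals are exact Poisson (CPM), Clopper-Pearson (shares) and conditional binomial (ratios), at 95%, and a count of 0 allows 3 UMIs. All deposited barcodes were the main set. The limits of the study (over 200 genes, over 1000 UMIs, log10 genes per log10 UMI over 0.7, under 10% mitochondrial and under 5% red blood cell UMIs) were an alternative, with and without doublets called against 2 simulated doublets per cell (top 0.8% per 1000 cells). Other alternatives were thresholds of 10 and 50 UMIs, a threshold of 20 that is also 1% of UMIs, TMM factors, size factors, other totals and the mean over barcodes. A marker group needed at least 3 markers. The members and lists were chosen with earlier results of these data known. Named beside the members were up to 4 genes per list, highest by level, and the 10 first by likeness and by share in AS. Of 63 listed genes, 1 (Clec7a) was not used here. Fold calls were tested on simulated data. Python 3.11.15, pandas 2.3.3, numpy 2.4.6, matplotlib 3.10.9, scikit-learn 1.9.0, scipy 1.17.1, R 4.3.3 and edgeR 4.0.16 were used. Mmp9 had no window in the promoter table.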

Additional observations from a re-analysis of the deposited data

How the results depend on the processing

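Every comparison of AS with another library kept its direction under each alternative tried. This held for 270 of 270 values for the single genes, and 108 of those lay outside the main counting interval. Since the genes were chosen for being high in AS, that direction was fixed by the choice. Orders among the 3 lower libraries were not among these values. Camp, within the limits and without doublets, stood at 4.84 CPM in the library labelled Healthy and 6.72 CPM in MTZ-treated, the reverse of the main order. For the 7 genes summed, AS over the library labelled Healthy came to 3.66 on the log2 scale. It was 3.84 within the limits, 4.40 also without doublets, 4.94 under the threshold, 3.53 without mitochondrial, ribosomal protein and hemoglobin genes, 3.45 without the richest AS barcode and 4.23 without the richest one of the library labelled Healthy. For MTZ-treated against AS the value was -4.56, and became -5.24, -4.74 and -4.10 in the same first 3 settings, -3.86 as the mean over barcodes, -5.05 without the richest MTZ-treated barcode and -4.35 without the richest AS barcode. MTZ-preventive against AS was -5.14, and became -5.77, -5.30, -4.89, -4.16 and, without the richest AS barcode, -4.93. The cause was not tested.

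The log2 ratio of threshold shares was 4.74 for AS against the library labelled Healthy, 5.25 at a threshold of 50, 4.22 at 100 and 5.52 within the limits without doublets. For MTZ-treated against AS it was -4.64, then -3.98 at 100, -5.90 within the limits and -6.09 without doublets. For MTZ-preventive against AS it was -3.80, then -4.34 at 10, -2.84 at 50, -2.44 at 100, -4.63 within the limits and -5.11 without doublets. The percent of the 7 genes' UMIs in threshold barcodes, at thresholds of 10 and 50, was 91.2% and 76.4% in the library labelled Healthy, 74.1% and 51.0% in AS, 66.2% and 38.2% in MTZ-treated and 60.6% and 42.0% in MTZ-preventive. Within the limits, with and without doublets, it was 90.8% and 81.6% in the library labelled Healthy, 83.7% and 77.7% in AS, and 69.7% and 71.0% in MTZ-treated. Camp ranged from 0.07 to 3.16 for AS against the library labelled Healthy and from -2.998 to -0.62 for MTZ-treated against AS. No count of genes past 4-fold moved by over 1.5 times without the filter on low values. In threshold barcodes of the library labelled Healthy (787 genes) and MTZ-treated (912) it could not move, since 1 UMI there is over 10 CPM. The percent of all genes past the fold fell in every comparison. It went from 2.79% to 1.53% for AS over the library labelled Healthy, and from 7.84% to 3.57% in the threshold barcodes of that library. The threshold of 100, the classes by summed UMIs and the removal of single barcodes were chosen after seeing the data. No paired analysis was possible because each condition has 1 library.

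The AS library was the shallowest, where 3 UMIs make 0.394 CPM, and MTZ-preventive the deepest, where they make 0.0591 CPM.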

Other observations

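Hp, which encodes haptoglobin and was listed with the secondary granule genes, did not follow the members. It stood at 22.3 CPM in the library labelled Healthy, 2903 CPM in AS, 71.3 CPM in MTZ-treated and 2579 CPM in MTZ-preventive. In the threshold barcodes Hp was not past 4-fold in AS or MTZ-preventive. It was past it in the library labelled Healthy (890 against 21.1 CPM) and in MTZ-treated (741 against 70.4 CPM). Cxcl1, a chemokine that draws neutrophils through Cxcr2, stood at 97.6, 244, 126 and 358 CPM in the same order, highest in MTZ-preventive. Csf3, which encodes the G-CSF that Csf3r binds, stood at 3.39, 10.8, 16.0 and 13.9 CPM.

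The limits on cells removed many of the barcodes described here. Of the threshold barcodes, 25 of 41 lay within the limits in the library labelled Healthy, 164 of 345 in AS, 9 of 42 in MTZ-treated and 49 of 86 in MTZ-preventive. Of these the doublet caller marked 8, 12, 2 and 20. It marked 6 of the 8 barcodes with 100 or more summed UMIs in the library labelled Healthy, 1 of which met the fibroblast or smooth muscle markers. After both steps Camp in that library fell from 10.6 to 4.84 CPM and Ngp from 12.03 to 7.12 CPM.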
